A study of Homo sapiens with 12 samples.

Results

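The genes described here encode the NF-kappaB transcription factor subunits and the proteins that switch NF-kappaB off again. They were listed by name as NFKB1, NFKB2, REL, RELA, RELB, NFKBIA, NFKBIE, NFKBIZ, TNFAIP3 and BIRC3. Of these 10 genes, 9 were measured among 18132 genes tested, through 15 probe sets. BIRC3 was not analysed here, since the platform annotation used pairs no probe set with that symbol alone. RNA was measured in A549 cells, a human lung adenocarcinoma line of epithelial origin, grown as monolayers on uncoated plastic. The groups were monolayers given heat shock for 2 h and then wounded, monolayers given the same heat shock alone, monolayers wounded alone for 4 h, and untreated control monolayers, with 3 Affymetrix PrimeView arrays each and 12 in all. Wounded monolayers carried multiple scratch wounds. All groups share the cell line, the culture on plastic and the serum-containing medium. No label gives the time of lysis after heat shock alone, or tells separate cultures from repeats of 1 culture, so p-values measure the spread between these samples, which may be technical.

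NF-kappaB subunits pair with each other and are held in the cytoplasm by IkappaB proteins. Inflammatory cytokines, bacterial products and tissue injury activate the IkappaB kinase complex, which marks IkappaB for destruction and frees the subunits to enter the nucleus. Several of the genes that NF-kappaB then induces encode its own inhibitors, which closes a feedback loop, and in lung epithelium the same pathway drives chemokines that recruit leukocytes. Heat shock acts through another transcription factor, HSF1, which induces chaperones.

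Values are RMA levels on a log2 scale, and levels of different genes are not compared. The cell line carried its epithelial character in every group: all 8 epithelial and A549 markers lay above the median of all genes, with array medians of the list between 13.10 and 13.23. Array medians did not exceed 4.55 for 9 leukocyte markers, 3.84 for 7 endothelial markers and 3.69 for 7 fibroblast markers. Of the leukocyte markers, 1 lay above the median of all genes in every group: CD68, which averaged 6.84 to 7.18. Of the endothelial and fibroblast markers, 0 did. Of 6 alveolar type II markers, 3 lay above the median of all genes after both treatments, 1 after heat shock and 2 after wounding, against 2 in control. Over the groups SFTPA1 averaged 2.26 to 2.38, LAMP3 2.66 to 3.04, SFTPB 5.26 to 5.40, NAPSA 5.81 to 6.12, SFTPC 5.97 to 6.30 and ABCA3 7.37 to 7.65. ABCA3 was the 1 marker of that list called after both treatments (-0.27 against control, adjusted p = 0.0349). In the same comparison 1 epithelial or A549 marker was called lower and 1 endothelial marker higher. After heat shock alone 1 fibroblast marker was called lower than in control. The heat shock chaperone HSPA6 read 10.92, 10.96 and 10.40 on heat shocked and wounded arrays and 10.34, 10.48 and 9.46 on heat shocked arrays, against 4.79, 4.86 and 4.18 on wounded arrays and 4.48, 4.11 and 4.31 on control arrays, so both groups given heat shock stood apart from both groups without it. Sample 3 had the lowest HSPA6 level in every group but control. Of the other heat shock genes read, HSPA1B, DNAJB1 and BAG3 were lowest on sample 3 in every group, with or without heat shock. HSPA1B, for example, read 10.37, 10.44 and 9.81 on control arrays. HSPB1 did not share this in every group. It was highest on sample 3 among heat shocked arrays and, narrowly, among wounded arrays (11.54 against 11.52 and 11.45). On heat shocked and wounded arrays it was lowest on sample 3 (12.86 against 12.98 and 12.97). In the sample descriptions, samples 1 and 2 of every group carry the code S2 and sample 3 the code S3, whose meaning is not given. Sample 2 of the heat shocked and wounded group had the narrowest spread of levels, with an interquartile range of 3.98 against 4.13 to 4.24 on the other arrays.

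Promoter sequence was looked up because several of these genes are textbook targets of NF-kappaB itself. RefSeq windows on GRCh38.p14, from 250 bases before to 50 bases after an annotated gene start, were at hand for 8 of the 10 genes in 13 windows, with none for RELB and NFKBIE. The kappaB consensus was searched as a pattern of 10 letters, on both strands and with overlapping matches kept. In order these are GGG, A or G, any base, A or T, C or T, again C or T, and CC. It was present in 9 of the 13 windows, against 5.91% of 35116 windows of all genes. A shorter kappaB core, GGGNNTTCC, overlaps the consensus and was present in 5 of the 13 windows, against 6.58% of all. Arrangements of heat shock elements, GAANNTTC, TTCNNGAA and the heat shock element triple, which contains the pairs, matched 0 of the 13 windows, against 6.77%, 7.74% and 0.49% of all. These 5 patterns are all that were searched, and a match describes letters and not a bound site. The bases before the start are shown for the windows holding a match of the 4 genes that were higher in at least 1 treated group and have such a window, with the kappaB consensus in capitals. NFKB1 lies at chr4:102501109-102501358 on the plus strand, NFKBIA at chr14:35404750-35404999 on the minus strand, and TNFAIP3 at chr6:137867009-137867258 on the plus strand. NFKBIZ has a window at chr3:101827740-101827989 and another at chr3:101849264-101849513, both on the plus strand.
NFKB1: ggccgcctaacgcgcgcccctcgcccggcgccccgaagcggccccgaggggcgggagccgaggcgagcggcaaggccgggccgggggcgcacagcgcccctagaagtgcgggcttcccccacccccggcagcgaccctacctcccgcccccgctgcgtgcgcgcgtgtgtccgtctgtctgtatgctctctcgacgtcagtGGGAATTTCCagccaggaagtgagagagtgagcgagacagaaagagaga
NFKBIA: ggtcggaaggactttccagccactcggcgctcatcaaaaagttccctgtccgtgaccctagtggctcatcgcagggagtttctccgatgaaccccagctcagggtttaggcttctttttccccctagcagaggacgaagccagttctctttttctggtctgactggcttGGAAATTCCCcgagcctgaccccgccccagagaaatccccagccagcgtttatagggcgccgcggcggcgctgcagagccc
NFKBIZ, first window: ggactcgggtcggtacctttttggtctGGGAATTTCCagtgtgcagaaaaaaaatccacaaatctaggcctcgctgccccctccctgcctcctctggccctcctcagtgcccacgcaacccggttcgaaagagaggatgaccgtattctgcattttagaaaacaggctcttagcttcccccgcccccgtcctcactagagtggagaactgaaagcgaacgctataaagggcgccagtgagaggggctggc
NFKBIZ, second window: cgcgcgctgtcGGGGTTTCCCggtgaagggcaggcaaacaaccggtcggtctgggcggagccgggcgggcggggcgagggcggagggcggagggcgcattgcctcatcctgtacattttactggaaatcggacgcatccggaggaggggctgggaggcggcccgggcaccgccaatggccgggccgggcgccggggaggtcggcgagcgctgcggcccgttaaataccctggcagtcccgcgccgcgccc
TNFAIP3: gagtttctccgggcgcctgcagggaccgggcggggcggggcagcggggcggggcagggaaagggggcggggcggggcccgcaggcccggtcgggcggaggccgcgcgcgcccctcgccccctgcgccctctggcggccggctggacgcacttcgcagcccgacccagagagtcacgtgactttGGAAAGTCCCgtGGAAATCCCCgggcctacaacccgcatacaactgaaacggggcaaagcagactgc
The match began 49 bases before the start in NFKB1 and 81 bases before it in NFKBIA. TNFAIP3 held 2 matches, 67 and 55 bases before the start. RELA, which was also higher after both treatments, had no match in either of its windows.

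**Figure D1:**
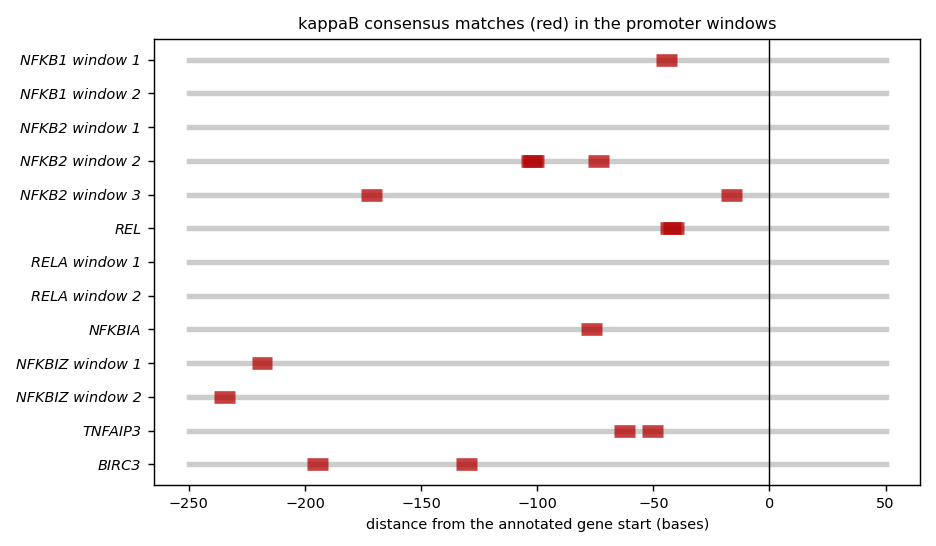
Position of kappaB consensus matches (red) in the 13 promoter windows of 8 genes, with distance from the annotated gene start in bases on the x axis and 1 grey line per window. Matches appear in 9 windows and are missing from both RELA windows, 1 of the NFKB1 windows and 1 of the NFKB2 windows.

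Against control, heat shock and wounding together raised 5 of the 9 measured genes: NFKB1, RELA, NFKBIA, NFKBIZ and TNFAIP3. A gene was called at an adjusted p under 0.05 in limma, and in this comparison 23.1% of all genes were called, 8.66% higher and 14.4% lower. Heat shock alone raised NFKBIA, NFKBIZ and TNFAIP3 and lowered RELB and NFKBIE, 5 of 9 genes, where 12.9% of all genes were called, 4.93% higher and 7.92% lower. Wounding alone raised NFKB1, NFKBIZ and TNFAIP3 and lowered 0 of the 9, where 3.57% of all genes were called, 2.27% higher and 1.31% lower. The median difference over the 9 genes was 0.25 after both treatments, 0.10 after heat shock and 0.21 after wounding on the log2 scale, where the median over all genes was -0.01, -0.03 and -0.03.

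Between the treated groups, both treatments against wounding alone raised NFKBIA and lowered RELB, where 14.9% of all genes were called, 6.31% higher and 8.60% lower. Both treatments against heat shock alone raised NFKB1 and lowered 0 of the 9, where 4.30% were called, 2.71% higher and 1.58% lower. Heat shock was also compared with wounding, a comparison added after the data were seen. NFKB1, RELB and NFKBIE were lower after heat shock and 0 of the 9 higher, where 10.5% were called, 4.51% higher and 6.01% lower. NFKB1 was not called after heat shock against control (0.02, adjusted p = 0.917) and was higher after wounding.

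Some genes had groups free of overlap, with each array of a group on 1 side of each array of the other. Against control this held for 5 genes in the higher direction and 2 in the lower after both treatments, beside 14.7% and 22.7% of all genes. After heat shock it held for 3 higher and 2 lower, beside 10.5% and 20.8%, and after wounding for 6 higher and 0 lower, beside 7.97% and 13.9%. For both treatments against wounding it held for 2 higher and 2 lower, beside 14.9% and 17.2%. For both treatments against heat shock it held for 3 higher and 0 lower, beside 10.6% and 9.33%, and for heat shock against wounding for 0 higher and 4 lower, beside 12.2% and 16.1%. The comparisons with control share the 3 control arrays. In bulk RNA, fewer cells of a type and less RNA per cell cannot be told apart.

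**Figure D2:**
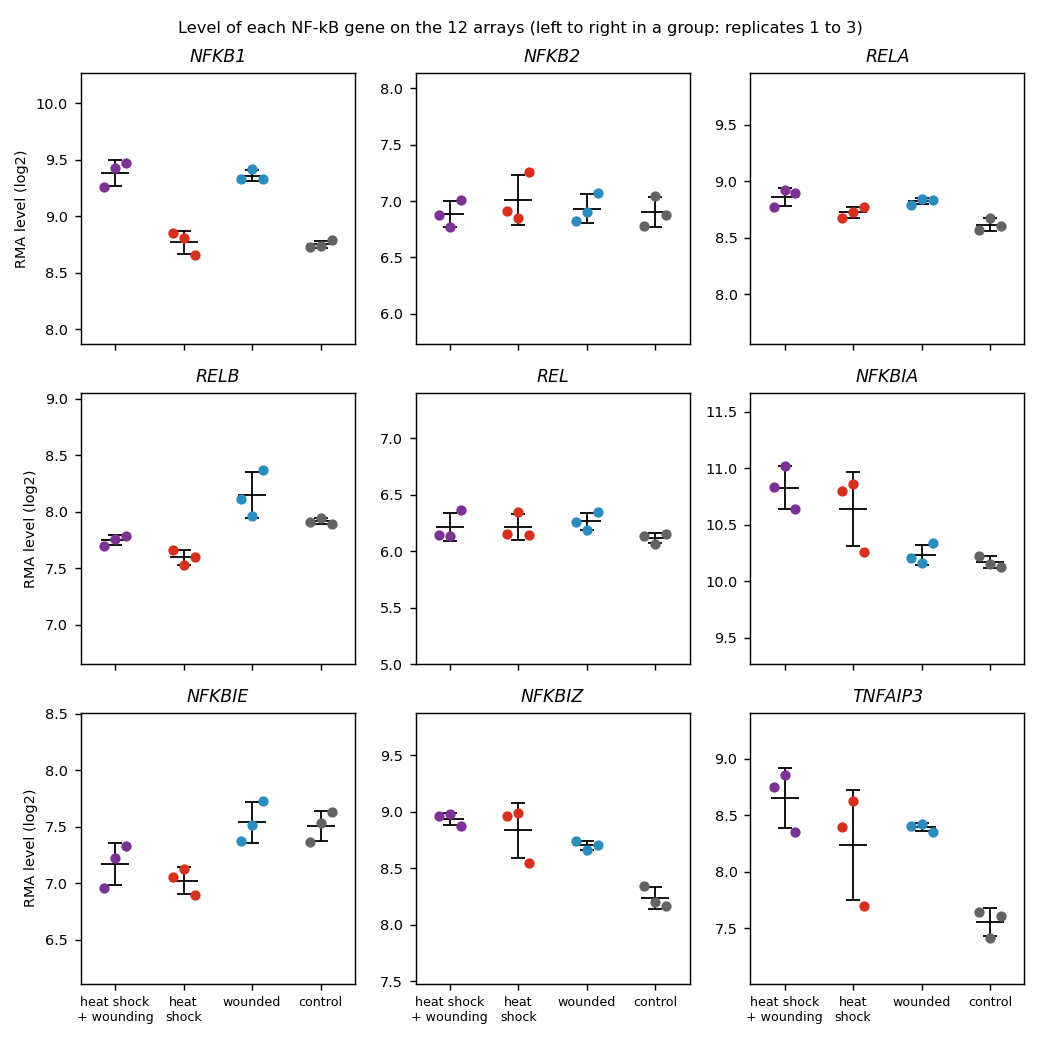
RMA level (log2, y axis) of the 9 measured genes on each of the 12 arrays, by group, with points for arrays and bars for mean and SD (n = 3). NFKB1 is high in both wounded groups, NFKBIA is highest in both groups given heat shock, and TNFAIP3 is lowest in control, with heat shocked sample 3 at 7.70 closest to it.

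**Figure D3:**
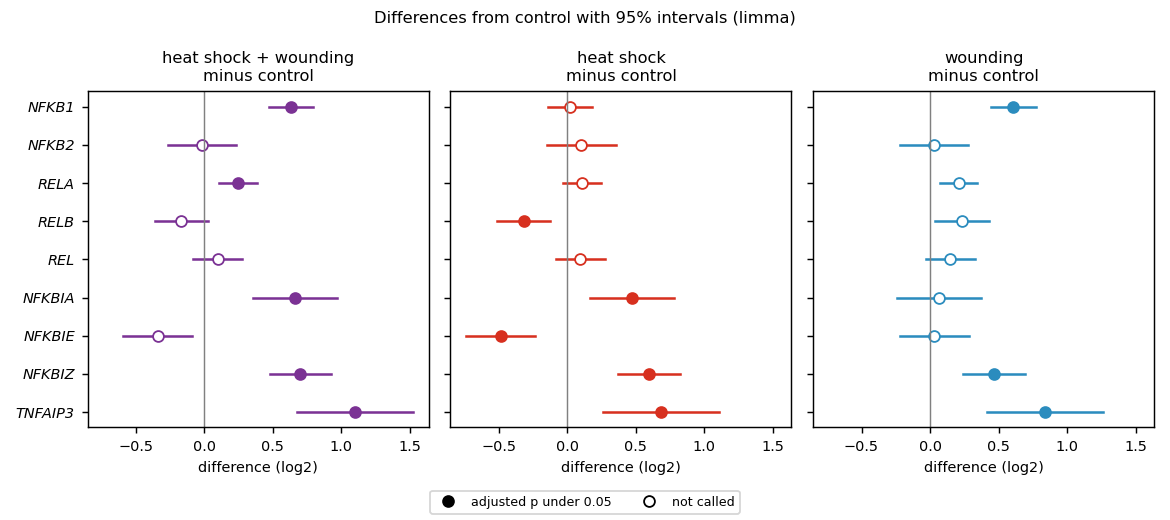
Difference from control (log2, x axis) for each gene in the 3 treated groups, with 95% intervals from limma and filled points at an adjusted p under 0.05. NFKB1 is filled in both wounded groups, RELB and NFKBIE lie to the left in the groups given heat shock, and NFKBIZ and TNFAIP3 are filled in all 3 panels.

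Among the subunits, NFKB1 moved with wounding. NFKB1 encodes the precursor of a subunit that lacks a transactivation domain and most often pairs with RELA. It read 9.26, 9.42 and 9.47 on heat shocked and wounded arrays, 8.85, 8.81 and 8.66 on heat shocked arrays, and 9.33, 9.42 and 9.33 on wounded arrays, against 8.72, 8.74 and 8.79 on control arrays. Every array of both wounded groups lay above every array of the other groups, while heat shocked and control arrays overlapped. NFKB1 was 1.55-fold higher after both treatments than in control (log2 0.63 ± 0.07 SE, adjusted p = 5.97e-05) and 1.52-fold higher after wounding alone (0.61 ± 0.07, adjusted p = 0.000568). It was the 1 gene of the 9 called between both treatments and heat shock alone (0.61 ± 0.07, adjusted p = 0.00047). After heat shock alone the difference from control was 0.02, with a 95% interval of -0.14 to 0.18. Each of these 3 calls was kept when any 1 of the 12 arrays was left out.

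RELA encodes the main transactivating subunit. It read 8.77, 8.92 and 8.89 on heat shocked and wounded arrays, 8.68, 8.73 and 8.77 on heat shocked arrays, and 8.79, 8.85 and 8.83 on wounded arrays, against 8.57, 8.68 and 8.60 on control arrays. Arrays given both treatments lay above all control arrays, and so did wounded arrays. The gene was 1.19-fold higher after both treatments (0.25 ± 0.06, adjusted p = 0.013), and without control sample 1 that call was lost (adjusted p = 0.0601). It was also lost with only the groups compared in the fit and with only the arrays of code S2 (highest adjusted p = 0.0902). The difference after wounding alone, 0.21 ± 0.06, did not pass (adjusted p = 0.116).

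RELB encodes the subunit of the slower, noncanonical branch of the pathway. It read 7.70, 7.75 and 7.78 on heat shocked and wounded arrays, 7.66, 7.53 and 7.60 on heat shocked arrays, and 8.11, 7.96 and 8.37 on wounded arrays, against 7.91, 7.94 and 7.89 on control arrays. The order of the means ran from heat shock through both treatments and control to wounding, and each neighbouring pair of groups was free of overlap. RELB was 1.32-fold lower after both treatments than after wounding alone (-0.40 ± 0.09, adjusted p = 0.00989) and 1.46-fold lower after heat shock than after wounding (-0.55 ± 0.09, adjusted p = 0.00177). The first of these calls was lost with only the groups compared in the fit and with only the arrays of code S2 (highest adjusted p = 0.059). Against control, RELB was 1.24-fold lower after heat shock (-0.32 ± 0.09, adjusted p = 0.0358), a call lost without any 1 control array, any 1 heat shocked array or wounded sample 1 (highest adjusted p = 0.115), and with cyclic loess scaling (adjusted p = 0.0637). In that order no neighbouring pair of groups passed the test: both treatments exceeded heat shock by 0.15 (adjusted p = 0.444), both treatments read -0.17 against control (adjusted p = 0.216), and wounding exceeded control by 0.23 (adjusted p = 0.252).

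NFKB2, the precursor of the partner of RELB, averaged 6.89 ± 0.12 (SD, n = 3) after both treatments, 7.01 ± 0.22 after heat shock and 6.93 ± 0.13 after wounding, against 6.90 ± 0.13 in control. REL, a subunit best known from lymphocytes, averaged 6.21 ± 0.13, 6.21 ± 0.11 and 6.26 ± 0.08 in the same groups, against 6.11 ± 0.05 in control. Neither passed in any comparison, and their differences from control lay between -0.02 and 0.15. REL was among the genes whose wounded arrays all lay above the control arrays.

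Among the inhibitors, NFKBIA was high where heat shock was given. NFKBIA encodes the IkappaB protein that is destroyed and resynthesised fastest after stimulation. It read 10.83, 11.02 and 10.64 on heat shocked and wounded arrays, 10.80, 10.86 and 10.26 on heat shocked arrays, and 10.20, 10.16 and 10.34 on wounded arrays, against 10.23, 10.16 and 10.12 on control arrays. All arrays given both treatments lay above all wounded and control arrays, whereas heat shocked sample 3 fell below wounded sample 3. NFKBIA was 1.58-fold higher after both treatments than in control (0.66 ± 0.14, adjusted p = 0.00426) and 1.51-fold higher than after wounding alone (0.60 ± 0.14, adjusted p = 0.0131). Without heat shocked and wounded sample 2, the second of these calls was lost (adjusted p = 0.0528). After heat shock alone it was 1.39-fold higher (0.47 ± 0.14, adjusted p = 0.044). That call was lost without any 1 control array, any 1 wounded array, heat shocked sample 1 or 2, or heat shocked and wounded sample 1 (highest adjusted p = 0.16), and with only the groups compared in the fit (adjusted p = 0.0715). Without heat shocked sample 3 the difference was 0.66 (adjusted p = 0.00205). After wounding alone the difference was 0.06, with a 95% interval of -0.24 to 0.37. Heat shock exceeded wounding by 0.41 ± 0.14, which did not pass (adjusted p = 0.0922) but did without heat shocked sample 3 (adjusted p = 0.00427).

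NFKBIE encodes IkappaB epsilon, an inhibitor with slower feedback. It read 6.96, 7.22 and 7.33 on heat shocked and wounded arrays, 7.06, 7.12 and 6.89 on heat shocked arrays, and 7.37, 7.52 and 7.73 on wounded arrays, against 7.37, 7.53 and 7.63 on control arrays. Every array given heat shock lay below every array without it. NFKBIE was 1.4-fold lower after heat shock than in control (-0.49 ± 0.12, adjusted p = 0.0156) and 1.43-fold lower than after wounding (-0.52 ± 0.12, adjusted p = 0.0132). The first call was lost without control sample 2, control sample 3 or heat shocked sample 3 (highest adjusted p = 0.064), and the second without heat shocked sample 3 or wounded sample 3 (highest adjusted p = 0.0551). With only the arrays of code S2 both were lost (adjusted p = 0.0877 and 0.11). After both treatments the differences of -0.34 from control and -0.37 from wounding alone did not pass (adjusted p = 0.0538 and 0.0512). The first of these passed without control sample 1, heat shocked and wounded sample 3, or wounded sample 1 or 3 (lowest adjusted p = 0.0309). The second passed without heat shocked and wounded sample 3 or wounded sample 1 (lowest adjusted p = 0.0314). Of the 10 alternative fits that did not leave out single arrays, each difference passed in 5 (lowest adjusted p = 0.025 and 0.0218).

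NFKBIZ encodes a nuclear IkappaB protein that steers which target genes are induced. It read 8.96, 8.98 and 8.88 on heat shocked and wounded arrays, 8.96, 8.99 and 8.55 on heat shocked arrays, and 8.74, 8.66 and 8.70 on wounded arrays, against 8.34, 8.20 and 8.16 on control arrays. All treated arrays lay above all control arrays. It was 1.63-fold higher after both treatments (0.70 ± 0.10, adjusted p = 0.000353), 1.51-fold higher after heat shock (0.60 ± 0.10, adjusted p = 0.0025) and 1.38-fold higher after wounding (0.47 ± 0.10, adjusted p = 0.0267). The call after wounding was lost without control sample 2 or 3 or any 1 wounded array (highest adjusted p = 0.11), and the other 2 were kept without any 1 array. Both treatments exceeded wounding alone by 0.23 ± 0.10, which did not pass (adjusted p = 0.161) but did without heat shocked sample 3 (adjusted p = 0.0298). Heat shock exceeded wounding by 0.13 ± 0.10, which did not pass either (adjusted p = 0.545) and passed without that array (adjusted p = 0.036).

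TNFAIP3 had the highest fold of the 9 genes against control after both treatments. It encodes a ubiquitin-editing enzyme that ends signalling upstream of the IkappaB kinases. It read 8.75, 8.86 and 8.35 on heat shocked and wounded arrays, 8.39, 8.62 and 7.70 on heat shocked arrays, and 8.40, 8.42 and 8.35 on wounded arrays, against 7.64, 7.41 and 7.61 on control arrays. All treated arrays lay above all control arrays, heat shocked sample 3 by the least. TNFAIP3 was 2.14-fold higher after both treatments (1.10 ± 0.19, adjusted p = 0.00128), 1.61-fold higher after heat shock (0.68 ± 0.19, adjusted p = 0.0366) and 1.79-fold higher after wounding (0.84 ± 0.19, adjusted p = 0.0336). The call after heat shock was lost without any 1 control array, any 1 wounded array or heat shocked sample 1 or 2 (highest adjusted p = 0.135), and with only the groups compared in the fit (adjusted p = 0.0676). Without heat shocked sample 3 the difference was 0.95 (adjusted p = 0.00133). The call after wounding was lost without any 1 control or wounded array (highest adjusted p = 0.14). The treated groups did not differ from each other at the threshold, with both treatments above heat shock by 0.42 (adjusted p = 0.293) and above wounding by 0.26 (adjusted p = 0.417).

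NFKBIA, NFKBIZ and TNFAIP3 were each lowest on sample 3 in both groups given heat shock, where HSPA6 was lowest too. Between the arrays of code S3 alone, 1 per group and without a test, heat shock minus control was 0.14 for NFKBIA, 0.39 for NFKBIZ and 0.09 for TNFAIP3. With the code as a block, heat shock still called 3 of the 9 genes higher and 2 lower against control. Without heat shocked sample 3 it called 3 higher and 0 lower.

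The genes measured by more than 1 probe set were NFKBIA with 3, RELA with 3, REL with 2 and TNFAIP3 with 2. With all probe sets fitted together, each of the 3 NFKBIA probe sets was higher after both treatments than in control, by 0.65 to 0.67. Both TNFAIP3 probe sets were higher, by 1.10 and 0.96. After single treatments fewer passed in that fit. After heat shock the NFKBIA probe set used above missed the threshold (adjusted p = 0.0539) while the other 2 passed at 0.54 (adjusted p = 0.0304) and 0.51 (adjusted p = 0.0224). The second TNFAIP3 probe set passed neither after heat shock (0.56, adjusted p = 0.076) nor after wounding (0.69, adjusted p = 0.0735). The 1 probe set of RELB missed it after heat shock (-0.32, adjusted p = 0.0506). For RELA after both treatments, 2 of 3 probe sets passed against control, at 0.45 (adjusted p = 0.0231) and 0.25 (adjusted p = 0.0234). The other read 0.27 (adjusted p = 0.134). After heat shock or wounding alone, none of the 3 passed against control. Over the 12 arrays the RELA probe sets at 0.45 and 0.27 averaged 4.11 and 4.72, against 8.76 for the one used above.

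**Figure D4:**
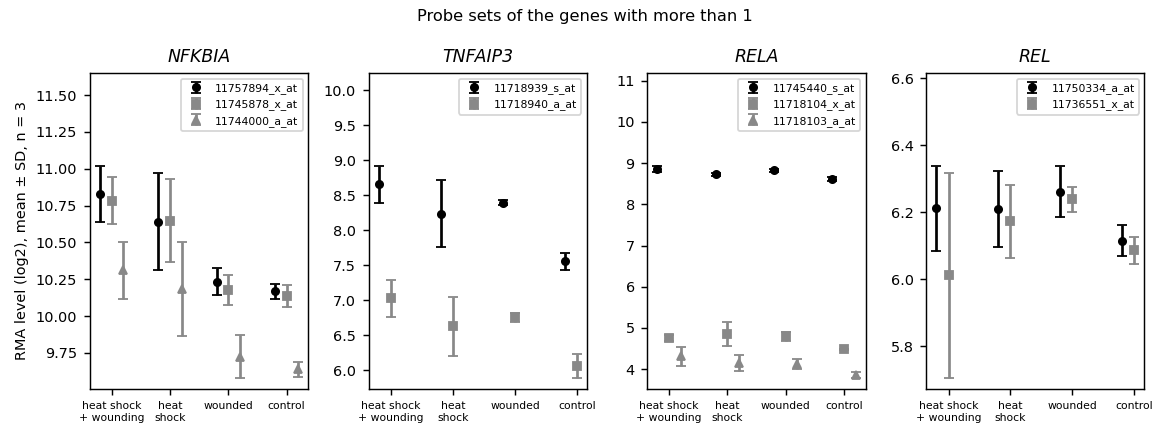
Mean RMA level (log2, y axis) with SD (n = 3) of each probe set of NFKBIA, TNFAIP3, RELA and REL, by group, with the probe set used for the tests in black. The 3 NFKBIA probe sets are higher in both groups given heat shock, and both TNFAIP3 probe sets are lowest in control.

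Whether wounding acted differently after heat shock was asked with the interaction of the treatments. In limma, 0 of the 9 genes passed, 1 of them had an unadjusted p under 0.05, and 1 of all genes was called (0.00552%). NFKBIZ had an interaction of -0.37 (95% interval -0.68 to -0.05, unadjusted p = 0.0275, adjusted p = 0.635). For TNFAIP3 it was -0.42, with an interval of -1.02 to 0.18. For NFKB1 it was 0.00, with an interval of -0.22 to 0.23.

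Other genes of the pathway were read from 4 lists, chosen with earlier results of these data known. Shares of a list set beside those of all genes are therefore a description and not a test. Among 23 measured receptors and adaptors upstream of the IkappaB kinases, 10 were higher and 4 lower after both treatments, 3 higher and 3 lower after heat shock, and 5 higher and 0 lower after wounding. Of all genes, 8.66% were higher and 14.4% lower after both treatments, 4.93% and 7.92% after heat shock, and 2.27% and 1.31% after wounding. IRAK2, an adaptor kinase of interleukin-1 and Toll-like receptors, averaged 9.01 ± 0.14 after both treatments, 8.38 ± 0.29 after heat shock and 8.79 ± 0.14 after wounding, against 7.76 ± 0.31 in control (SD, n = 3 each). It was 2.39-fold, 1.54-fold and 2.05-fold higher than control (adjusted p = 0.000135, 0.0245 and 0.00332). BCL10 and MALT1, partners in a signalling complex, went opposite ways after both treatments: BCL10 was 2.08-fold higher (1.06 ± 0.10, adjusted p = 1.54e-05) and MALT1 fell by 0.75 on the log2 scale (adjusted p = 1.81e-05). The median difference of the list after both treatments was 0.19.

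Of 15 genes of the IkappaB kinase complex and its activating kinases, 3 were higher and 1 lower after both treatments, 2 were higher after heat shock, and 0 passed after wounding, where 2 had an unadjusted p under 0.05. Of all genes, 23.1% were called after both treatments, 12.9% after heat shock and 3.57% after wounding. Counted in either direction, the share of this list was near that of all genes in both groups given heat shock. By direction, 8.66% of all genes were higher and 14.4% lower after both treatments, and 4.93% and 7.92% after heat shock. In both of these groups the list had a larger share higher and a smaller share lower, on few calls that depended on single arrays. Without heat shocked and wounded sample 2, 1 of the 15 was higher and 0 lower after both treatments, beside 1338 higher of 18132 genes. Without heat shocked sample 3, 1 was higher and 0 lower after heat shock, beside 973 higher of 18132 genes. MAP3K14, the kinase that starts the noncanonical branch, averaged 8.90 ± 0.08 after both treatments, 8.85 ± 0.08 after heat shock and 8.24 ± 0.19 after wounding, against 8.44 ± 0.15 in control. It was 1.37-fold higher than control after both treatments (adjusted p = 0.00587) and 1.33-fold higher after heat shock (adjusted p = 0.0186). IKBKG, the regulatory subunit of the complex, was 1.26-fold higher after both treatments (adjusted p = 0.0289), and without heat shocked and wounded sample 2 that call was lost (adjusted p = 0.0781).

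Of 18 other IkappaB proteins and negative regulators, 3 were higher after both treatments, 2 after heat shock and 0 after wounding, where 1 had an unadjusted p under 0.05. Of all genes, 8.66% were higher and 14.4% lower after both treatments, 4.93% and 7.92% after heat shock, and 2.27% and 1.31% after wounding. In both groups given heat shock the share called higher exceeded that of all genes, on 3 and 2 genes, and 0 were lower. Counted in either direction, the share called did not exceed that of all genes. That was 23.1% after both treatments, 12.9% after heat shock and 3.57% after wounding. BCL3, a nuclear IkappaB protein, averaged 10.01 ± 0.17 after both treatments, 10.24 ± 0.03 after heat shock and 9.55 ± 0.08 after wounding, against 9.66 ± 0.14 in control. It was 1.5-fold higher after heat shock than in control (adjusted p = 0.00152). OTULIN, which removes linear ubiquitin chains, was 1.25-fold higher after both treatments (adjusted p = 0.00516) and after heat shock (adjusted p = 0.0101).

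Of 38 measured NF-kappaB target genes, 12 were higher and 4 lower after both treatments, 5 higher and 1 lower after heat shock, and 6 higher and 1 lower after wounding. Of all genes, 23.1% were called after both treatments, 12.9% after heat shock and 3.57% after wounding. Counted in either direction, the share of target genes after heat shock was near the second of these. By direction, 8.66% of all genes were higher and 14.4% lower after both treatments, 4.93% and 7.92% after heat shock, and 2.27% and 1.31% after wounding. After heat shock, on 5 and 1 genes, the share of target genes was above that of all genes for higher calls and below it for lower ones. CXCL8, a neutrophil chemokine, averaged 11.73 ± 0.25 after both treatments, 11.21 ± 0.48 after heat shock and 11.18 ± 0.16 after wounding, against 10.47 ± 0.08 in control, and was 2.39-fold higher after both (adjusted p = 0.000492). SDC4, a cell surface proteoglycan, was 2.25-fold higher after both treatments (adjusted p = 1.21e-06), 1.65-fold after heat shock (adjusted p = 0.000175) and 1.51-fold after wounding (adjusted p = 0.00165). CCL2, a monocyte chemokine, followed the wounding: it averaged 11.74 ± 0.19 after both treatments, 10.61 ± 0.12 after heat shock and 11.58 ± 0.04 after wounding, against 10.95 ± 0.17 in control. It was 2.19-fold higher after both treatments than after heat shock alone (adjusted p = 0.000103). TNFAIP2 was among the 4 lower genes, and with both treatments it read -0.39 against wounding alone (adjusted p = 0.00682). The median difference of the list was 0.21 after both treatments, 0.07 after heat shock and 0.09 after wounding, and 0 genes of the 4 lists had a called interaction in limma, where 2 receptors and adaptors and 4 target genes had an unadjusted p under 0.05. Without heat shocked and wounded sample 2, the genes called after both treatments were 8 higher and 3 lower receptors and adaptors, 1 higher kinase gene, 4 higher negative regulators, and 12 higher and 3 lower target genes. Without heat shocked sample 3, 9 target genes were higher and 1 lower after heat shock.

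**Figure D5:**
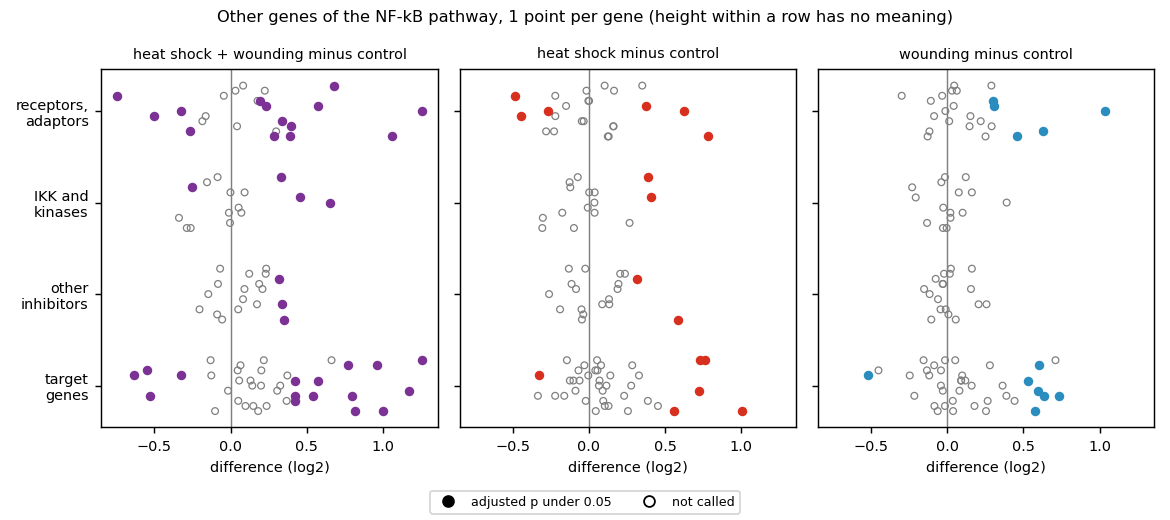
Difference from control (log2, x axis) of each gene of the 4 pathway lists in the 3 treated groups, 1 point per gene and filled at an adjusted p under 0.05 in limma. After both treatments 10 receptors and adaptors and 12 target genes are filled on the right, against 5 and 6 after wounding.

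The genes most like each called gene were taken as the 3 with the highest Pearson r over the 12 arrays among all other genes tested. The arrays share their groups, so r reflects differences between groups as well as spread within them, and it is given as a description. NFKB1 was most like BEND7 (r = 0.983), COXFA4L3 and TCEAL1, and TNFAIP3 was most like CXCL8 (r = 0.967), SKIL and SGMS1. SKIL was also among the 3 nearest to NFKBIZ, after RICTOR (r = 0.97). NFKBIA was nearest to FZD5 (r = 0.966), RELB to SAP30BP (r = 0.953), NFKBIE to SYNCRIP (r = 0.959) and RELA to SEMA4B (r = 0.95).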

How the data were processed

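RNA of 12 A549 samples was hybridised to Affymetrix PrimeView arrays from 100 ng of total RNA, per the labels' protocols. The authors deposited log2 levels, 1 per probe set and array; the submitters' processing notes name RMA and the program Affymetrix Expression Console, with no version. RMA corrects background and sets probe values to 1 distribution before levels of probe sets are formed. The levels used here still differed in spread between arrays, and differences of dim probe sets are compressed. Scanner files were not used here, and the number of arrays limits the precision.

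Of 49293 probe sets, 1 with a missing value was left out, 44987 had 1 gene symbol, 1832 had several and 2473 had none listed. Each gene was read through its single-symbol probe set with the highest mean, which gave 18132 genes. The linear model (limma 3.58.1, R 4.3.3) had a mean for each group over the 12 arrays and no replicate block, with 8 residual degrees of freedom, and p-values were adjusted by Benjamini-Hochberg over all genes. Every adjusted p in the text comes from limma, two-sided; levels carry an SD and differences an SE after the ± sign. The fit was tested on simulated data.

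The members and lists were chosen with earlier results of these data known. The rule named all members, up to 4 called genes per list and comparison by size of change (the smallest p where none passed), and the 3 genes most like each called member; the text gives a part of these. The direct comparison of heat shock with wounding, and the 2 alternatives that use the sample code, were added after seeing the data. Other alternatives were scaling, a level filter, probe set averaging, the groups fitted, eBayes settings, the block, and leaving out each array.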

Additional observations from a re-analysis of the deposited data

How the results depend on the processing

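Background correction, detection and scan order were not varied, since scanner files were not used here, and signal over background is unknown. Over all alternatives no called difference of the 9 genes changed sign: 367 called values kept their call, 51 lost it, and 23 uncalled ones gained it. Differences called in neither fit, such as that of NFKB2 after both treatments (0.06 with cyclic loess), changed sign in places. The scalings moved the median of all genes by under 0.1. Cyclic loess moved the split of calls from 38.4% to 49.6% higher after heat shock, from 37.6% to 50.1% after both treatments, and from 42.3% to 53.1% for both treatments against wounding.

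Fitting only the groups compared called 3 of the 9 genes after heat shock (5 with all arrays), 1 gene of the 9 (2) and 1663 genes of all (2704) for both treatments against wounding, and 300 genes (779) for both against heat shock. The arrays of code S2 alone called 1 of the 9 for both against wounding and 386 genes for both against heat shock. The interaction called 0 genes with the level filter, with averaged probe sets and with code S2 alone, and 2 with trend and robust eBayes, against 1. Fewer samples or genes enter several of these fits; the cause was otherwise not tested.

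Leaving out 1 array gave 1438 to 2594 genes and 1 to 5 of the 9 after heat shock, 306 to 722 genes and 1 to 3 of the 9 after wounding, 1649 to 2936 genes and 1 to 3 of the 9 for both against wounding, 498 to 790 genes for both against heat shock, 1 to 2 for the interaction, and 1182 to 2174 for heat shock against wounding.

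Deviations from group means correlated at -0.187 to 0.234 between same-numbered arrays, against -0.194 to 0.243 between arrays of different numbers. Of 18 same-numbered pairs, 6 exceeded 0.1, and 5 of 12 arrays correlated best with their own number. These correlations run over all genes and cannot tell whether same-numbered arrays were handled together. With the sample code as a block, 2615 genes were called after heat shock (2330 without it) and 4444 after both treatments (4180). With the replicate block the counts against control were 2370 genes for heat shock, 639 for wounding and 4230 for both treatments, and NFKBIE was called lower after both treatments, against control and against wounding.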
